A study of Homo sapiens with 34 samples.

Results

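The comparison described here set VCaP cells grown on a mineral coating against VCaP cells grown on plastic, both in control medium. VCaP is an established prostate cancer line from a bone metastasis, and the mineral was amorphous calcium phosphate (ACP). The 4 libraries were chosen by their labels, 2 on ACP and 2 on plastic, out of 34 libraries from 4 prostate lines. No measured value entered the choice. Control medium was DMEM and F12 mixed 1:1 with 10% fetal bovine serum, and no androgen was added in either group. The ACP cultures are labelled day 4 and the plastic cultures continuous culture, although the treatment protocol has both passaged and grown for 4 days with a medium change on day 2. Another 5 VCaP libraries shared the fit: 1 on plastic in charcoal-stripped serum, which holds little steroid hormone, 2 on ACP in stripped serum, and 2 on ACP in stripped serum plus an androgen, labelled 100 mM and named both DHT and testosterone. The replicates carry numbers but the labels do not say that they came from separate cultures, so p-values measure the spread between these libraries, which may be technical.

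ACP is a disordered calcium phosphate that can turn into the apatite of bone, the mineral that bone matrix holds. VCaP cells are luminal prostate cells whose ERG gene, an ETS transcription factor, is driven by the androgen-responsive TMPRSS2 promoter. Prostate cells in bone meet mineral, released calcium and phosphate, and a matrix that differs from plastic, so adhesion, calcium handling, bone matrix and hormone-dependent genes were listed for this comparison along with markers of other cells.

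Total counts were 35.5 M and 42.3 M on plastic and 21.4 M and 23.0 M on ACP (M, 1000000 reads). They ran from 19.7 M to 42.3 M over the 9 VCaP libraries. The 2 plastic libraries correlated with r = 0.981 over 15614 genes on the log2 scale, and 679 of those genes differed more than 2-fold between them. The 2 ACP libraries correlated with r = 0.991, and 176 genes differed more than 2-fold. Plastic replicate 2 correlated with r = 0.992 with ACP replicate 2, closer than with its own replicate. Genes are not independent replicates, so these correlations describe the libraries only. The luminal markers that define VCaP were present in all 4 libraries: ERG lay between 219 and 545 counts per 1000000 reads (CPM), KRT8, a luminal keratin, between 356 and 471 CPM, and KLK2, a secreted prostate protease, between 3314 and 4444 CPM. Surface and library preparation cannot be told apart in this design, nor can fewer cells of a type and less RNA per cell in bulk RNA.

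Of 15614 genes tested, 7 passed an adjusted p below 0.05 (0.0448% of genes tested; edgeR quasi-likelihood F test). On ACP, RPPH1, RMRP, RBMXL2 and FLJ16779 rose (4 genes, 0.0256%), and VIM, C3 and APOA1 fell (3 genes, 0.0192%). Without adjustment 1123 genes (7.19%) had p below 0.05, of which 484 (3.10%) were higher and 639 (4.09%) lower on ACP. The median log2 change of all genes was -0.016. The common biological coefficient of variation was 24.9%. The 7 calls depended on single libraries: 1 gene was called without plastic replicate 1, 2 without either ACP library, and 19 without plastic replicate 2, of which 3 were among the 7. The fit of the 4 compared libraries alone called 1 gene.

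**Figure D1:**
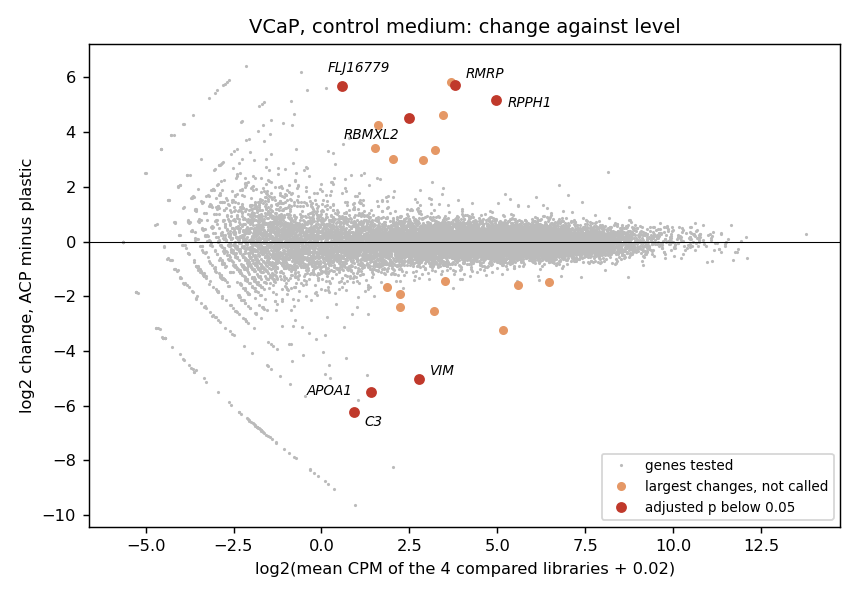
Log2 change on ACP against plastic for each tested gene (vertical axis) by its mean level in the 4 compared libraries (horizontal axis, log2 of CPM with 0.02 added). Red points are the 7 genes past the adjusted threshold, between -6.23 and 5.73, and orange points are the largest changes that missed it. The lower diagonal edge holds genes with 0 reads on ACP, such as FGG.

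Both RNAs of the highest level among the risers are catalytic or scaffold RNAs that end without a poly(A) tail. RPPH1 is the RNA of RNase P, which trims the 5′ end of transfer RNA precursors, and RMRP is the related RNA of RNase MRP, which cuts ribosomal RNA precursors. Their sequences are shown because the libraries were made by poly(A) selection, which captures an RNA by a run of A. Both come from GENCODE 29 on GRCh38, while the counts were made on hg19. RPPH1 lies at chr14:20343075-20343407 and RMRP at chr9:35657751-35658018, both on the minus strand. The last 20 bases are in capitals, and RPPH1 is shown from base 34 to its end.
RPPH1-201: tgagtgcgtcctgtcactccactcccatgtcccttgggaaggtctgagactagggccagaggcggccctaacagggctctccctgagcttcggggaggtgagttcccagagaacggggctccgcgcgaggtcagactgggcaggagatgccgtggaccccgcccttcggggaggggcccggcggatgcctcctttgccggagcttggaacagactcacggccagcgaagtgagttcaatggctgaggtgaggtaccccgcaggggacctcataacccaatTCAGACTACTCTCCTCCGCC
RMRP-201: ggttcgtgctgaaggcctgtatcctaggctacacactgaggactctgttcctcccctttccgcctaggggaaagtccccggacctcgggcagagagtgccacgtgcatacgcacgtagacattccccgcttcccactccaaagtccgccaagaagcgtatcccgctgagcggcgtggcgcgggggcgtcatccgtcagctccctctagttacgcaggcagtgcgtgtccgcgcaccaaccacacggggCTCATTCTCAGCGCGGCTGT
RPPH1-201 is 333 bases long and its longest run of A is 2 bases, with 3 A among the last 20 bases. RMRP-201 is 268 bases long and its longest run of A is 3 bases, with 2 A among the last 20. Of 206694 annotated transcripts, 99.86% hold a run of A as long as that of RPPH1 and 97.83% one as long as that of RMRP. Annotated sequences leave out any tail added after transcription, so these counts do not show whether an RNA is captured. How these RNAs entered the libraries was not tested.

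RPPH1 was at 1.48 and 1.89 CPM on plastic and at 32.4 and 89.8 CPM on ACP. Its log2 change was 5.18 ± 0.47 (SE), with an adjusted p of 0.00489. RMRP was at 0.511 and 0.506 CPM on plastic and at 11.04 and 43.5 CPM on ACP, a log2 change of 5.73 ± 0.67 (adjusted p = 0.0183). In both genes the groups did not overlap, as for 42.1% of all genes (19.8% in this direction), and ACP replicate 2 was the higher of the ACP pair. Their neighbours stayed close to 0: PARP2, a DNA repair enzyme next to RPPH1, had a log2 change of 0.09 ± 0.23, and CCDC107, next to RMRP, one of 0.05 ± 0.33. Of 33 listed RNAs without a poly(A) tail, 21 were in the table and 9 were tested. Besides the 2 that rose, SNORA73B, a small nucleolar RNA, had a log2 change of 5.63 ± 0.78 and missed the threshold with an adjusted p of 0.0537. It had 2 and 1 reads on plastic and 25 and 72 on ACP, a ratio of 57.0 (exact 95% interval 18.9 to 281, counting error only). Its host gene SNHG3 had a log2 change of -0.01 ± 0.30. SCARNA10 and SCARNA2, which sit in Cajal bodies, had log2 changes of 5.15 ± 1.04 and 1.95 ± 0.50, with adjusted p of 0.256 and 0.496. TERC, the telomerase RNA, was at 0.10 ± 0.59. The median log2 change of the 9 was 4.26, and 6 of 9 had an unadjusted p below 0.05 with a higher level on ACP, against 3.10% of all genes. SNORA73B and SCARNA10 had 3 and 2 reads on plastic in all, so they passed the count filter only through libraries other than plastic control. Such genes could hardly come out lower on ACP, so the median and this share depend in part on the filter. The listed RNAs summed to 6.10 and 4.76 CPM on plastic and to 50.3 and 146 CPM on ACP, and to 81.9 CPM in the plastic library with stripped serum.

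RBMXL2 is an intronless germ-cell relative of RBMX, an RNA-binding protein. It was at 0.511 and 0.414 CPM on plastic and at 8.49 and 12.9 CPM on ACP, with a log2 change of 4.53 ± 0.52 (adjusted p = 0.0183). RBMX itself was at -0.08 ± 0.22, close to that of all genes. RBMXL2 lies inside the span of NLRP14, and use of strand is not given in the sources used here. FLJ16779, a noncoding gene that overlaps NKAIN4 in antisense, had 3 and 1 reads on plastic and 57 and 73 on ACP. Its log2 change was 5.69 ± 0.77, with an adjusted p of 0.0491, the closest of the 7 to the threshold. Without strand, reads of FLJ16779 and of its partner cannot be told apart.

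VIM fell on ACP. It encodes vimentin, the intermediate filament of mesenchymal cells. VIM was at 11.7 and 15.0 CPM on plastic and at 0.472 and 0.341 CPM on ACP, with no overlap (22.3% of genes in this direction). Its log2 change was -5.02 ± 0.45, with an adjusted p of 0.00489. Of 17 tested genes of mesenchymal and epithelial state, 5 had an unadjusted p below 0.05 and all 5 were lower on ACP (4.09% of all genes were). Moesin (MSN), which ties actin to the membrane, was at 4.03 and 4.49 CPM on plastic and at 0.755 and 0.598 CPM on ACP, a log2 change of -2.65 ± 0.54 with an adjusted p of 0.256. LGALS1, a secreted galectin, and S100A4, a calcium-binding protein of motile cells, had log2 changes of -3.42 ± 0.84 and -3.08 ± 0.96, neither past the threshold. The epithelial adhesion genes did not share this: EPCAM was at 0.40 ± 0.25 and CDH1, E-cadherin, at -0.24 ± 0.20. The list median was -0.16, close to that of all genes.

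C3 and APOA1 also fell on ACP. C3 is the central protein of complement, which the liver and some epithelia secrete, and APOA1 is the main protein of high-density lipoprotein, made in liver and gut. C3 had 123 and 171 reads on plastic and 1 read in each ACP library, a ratio of 83.3-fold lower (exact 95% interval 22.9 to 691, counting error only). Its fitted log2 change was -6.23 ± 0.69, with an adjusted p of 0.0183. APOA1 was at 3.69 and 6.72 CPM on plastic and at 0.0472 and 0.171 CPM on ACP, a log2 change of -5.49 ± 0.69 (adjusted p = 0.0324). It had 5 reads on ACP in all.

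Other proteins that the liver secretes were low on ACP as well, without passing the threshold. Of 15 tested members of the liver list, APOA1 was called, and 9 had an unadjusted p below 0.05 with a lower level on ACP and 1 (TTR) with a higher one. Over all genes 0.0192% were called lower, and 4.09% were lower and 3.10% higher without adjustment. The list median was -2.84, against -0.016 for all genes. The fibrinogen chains FGA, FGB and FGG, which form the clot, had 145, 168 and 201 reads on plastic in all and 0 on ACP, so they were at least 27.4-fold, 31.7-fold and 38-fold lower with a floor of 3 reads over the group. The adjusted p of these chains were 0.211, 0.199 and 0.154. FGA and FGG had 0 reads in every VCaP library but the plastic control pair, so they passed the count filter only through that group. Such genes could only be lower on ACP, so the list median and the share of lower genes depend in part on the filter. The list did not move as a block. TTR, the thyroid hormone and retinol carrier, was at 6.69 and 13.5 CPM on plastic and at 20.1 and 23.5 CPM on ACP, a log2 change of 1.11 ± 0.36 (adjusted p = 0.617). Albumin (ALB) was at 52.8 and 124 CPM on plastic and at 244 and 131 CPM on ACP. Because of ALB the summed liver list was 103 and 204 CPM on plastic and 294 and 187 CPM on ACP. ALPP, placental alkaline phosphatase, had 121 and 181 reads on plastic and 0 on ACP, at least 57.1-fold lower, with an adjusted p of 0.0641.

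**Figure D2:**
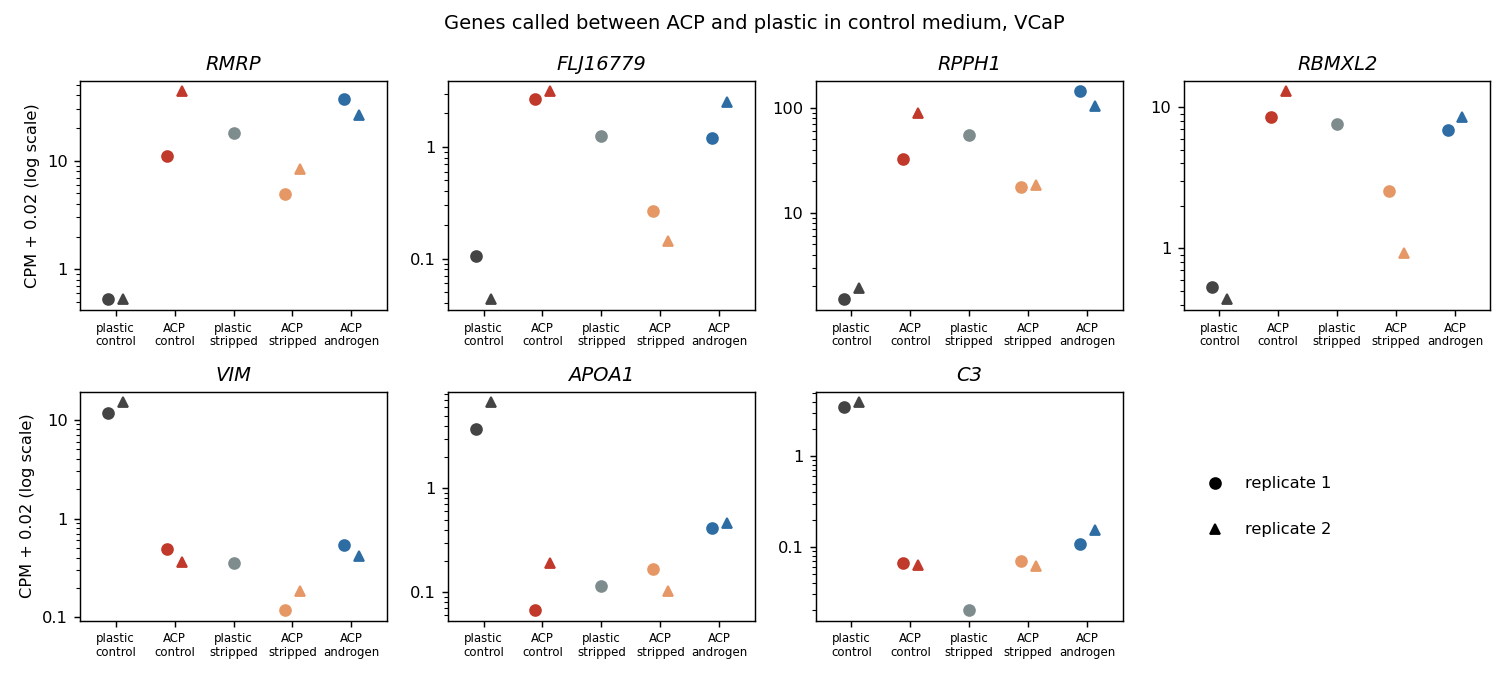
CPM with 0.02 added (log axis) of the 7 called genes in each of the 9 VCaP libraries, by surface and medium. Circles are replicate 1 and triangles replicate 2. In every panel the 2 plastic control libraries lie below or above all of the other 7, including the plastic library in stripped serum. The gap is small for FLJ16779, where plastic control replicate 1 and ACP stripped replicate 2 had 3 reads each (0.0851 and 0.124 CPM). It is also small for RBMXL2, at 0.511 CPM in plastic control replicate 1 and 0.910 CPM in ACP stripped replicate 2.

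The plastic library in stripped serum gives a view of the same surface outside the comparison. For all 7 called genes it lay nearer to the ACP control libraries than to the plastic control libraries, against 48.8% of all genes tested. VIM was at 0.334 CPM there and APOA1 at 0.0954 CPM, and C3 had 0 reads. RPPH1 was at 55.5 CPM there, RMRP at 18.2 CPM and RBMXL2 at 7.63 CPM. These levels resemble ACP although the cells grew on plastic. The library differs from plastic control in serum too and has no replicate, so a serum difference and a library difference cannot be told apart. Among the 1109 genes with an unadjusted p below 0.05 and no overlap, it lay nearer to ACP for 57.6%, for 64.3% of the 630 lower genes and 48.9% of the 479 higher ones.

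Among genes of 5 CPM or more, several chemokines were higher on ACP without passing the threshold. By the naming rule, the 10 largest positive changes held the 3 called genes with enough reads and 7 others, 5 of them genes of immune signalling. The rule asked for an unadjusted p below 0.05, groups that do not overlap and a mean of 5 CPM or more in the group with more, which 357 genes met in this direction. CXCL10, a chemokine that draws T cells, was at 0.426 and 0.437 CPM on plastic and at 43.7 and 6.40 CPM on ACP, a log2 change of 5.84 ± 1.58 (adjusted p = 0.529). CCL2, which draws monocytes, was at 0.823 and 0.874 CPM on plastic and at 31.9 and 10.0 CPM on ACP (4.62 ± 1.16, adjusted p = 0.482). CXCL8, or interleukin 8, which draws neutrophils, was at 0.340 and 0.621 CPM on plastic and at 8.16 and 2.39 CPM on ACP (3.42 ± 0.80, adjusted p = 0.455). None of the 3 passed the threshold, and in each ACP replicate 1 was the higher of the pair. The fit of all 34 libraries called all 3 (adjusted p of 0.0222, 0.0126 and 0.0199), as did the test with no count filter, while DESeq2 did not.

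UBD, a ubiquitin-like protein induced by cytokines, was at 10.5 CPM in ACP replicate 1 and at 0.939 CPM in replicate 2, against 0.312 and 0.276 CPM on plastic. IL2RG, the shared chain of several interleukin receptors, was at 11.7 and 2.86 CPM on ACP and at 0.567 and 1.22 CPM on plastic. These 2 genes had adjusted p of 0.618 and 0.551. In contrast to the called genes, the chemokines were low in the plastic library with stripped serum too: CXCL10 was at 0.334 CPM there, CCL2 at 0.715 CPM and CXCL8 at 0.143 CPM. CXCL10, CCL2, CXCL8 and IL2RG were higher in all 6 ACP libraries than in all 3 plastic libraries. A split of this kind held for 5.26% of genes in either direction. In this one it held for 459 of 15614 genes (2.94%) and for 0 of the 4 called genes that rose. It held for 4 of the 10 largest positive changes. Among all 479 genes that were higher at an unadjusted p below 0.05 with no overlap, it held for 156 (32.6%). The split includes the libraries that chose these genes. Their highest levels were in ACP with androgen replicate 2, at 167 CPM for CXCL10 and 141 CPM for CXCL8, while its replicate was at 3.26 and 31.1 CPM.

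**Figure D3:**
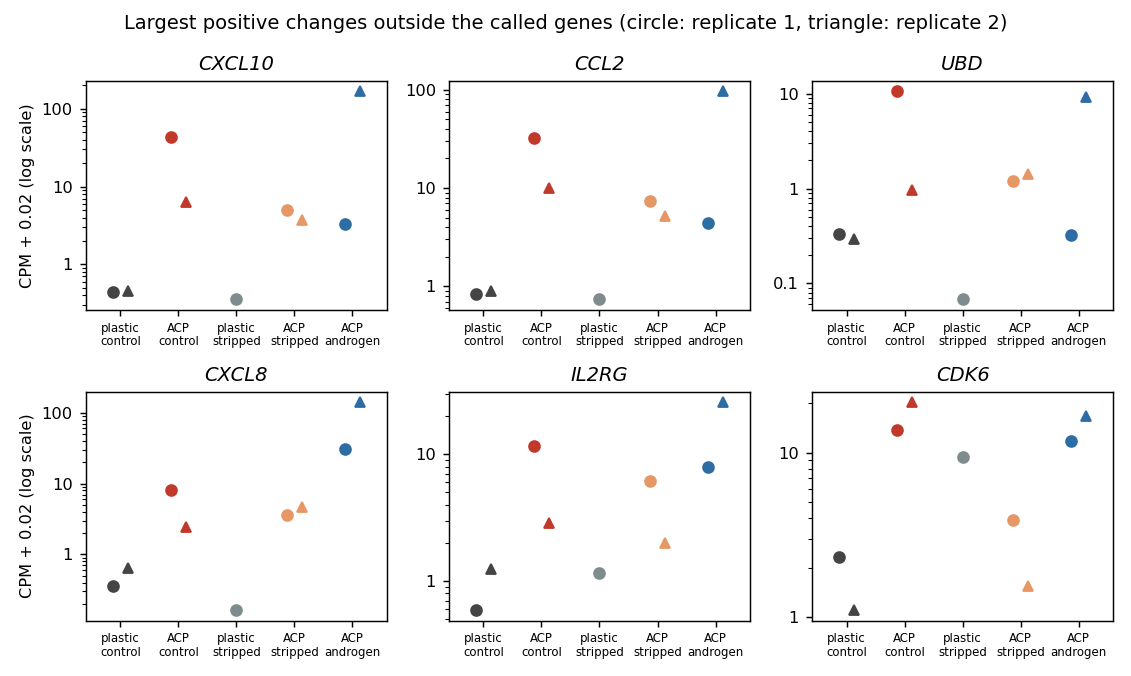
CPM with 0.02 added (log axis) of 6 genes among the 10 largest positive changes, in each VCaP library. The 3 plastic libraries were lowest for CXCL10, CCL2, CXCL8 and IL2RG, whose ACP libraries spread widely, while CDK6 was at 9.44 CPM on plastic in stripped serum.

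Genes further along the inflammatory pathway showed smaller differences. NFKBIA, the NF-kappaB inhibitor that is itself an NF-kappaB target, had a log2 change of 0.50 ± 0.33 and TNFAIP3, another feedback inhibitor, one of 0.73 ± 0.37. RELB and ICAM1, of the same pathway, had 0.55 ± 0.53 and 0.57 ± 0.70. RELB was at 18.8 and 14.3 CPM on plastic and at 36.8 and 11.7 CPM on ACP. CXCL11, a chemokine like CXCL10, was at 3.89 and 6.05 CPM on plastic and at 29.5 and 3.59 CPM on ACP. For RELB and CXCL11, ACP replicate 2 lay below both plastic libraries. Of 29 interferon-stimulated genes, 24 had a log2 change above 0, against 7545 of 15614 over all genes. The list median was 0.69 (0.18 without ACP replicate 1, 1.08 without plastic replicate 2). None of these genes was called, and only B2M, the light chain of MHC class I, had an unadjusted p below 0.05 (0.65 ± 0.29, adjusted p = 0.682). Their summed level was 1106 CPM in ACP replicate 1 and 695 CPM in ACP replicate 2, and 564 and 750 CPM on plastic, so the groups overlapped. PSMB9, an immunoproteasome subunit, was the highest of the list among genes of 5 CPM or more (1.26 ± 0.85) and STAT2 the lowest (-0.45 ± 0.33). Markers of blood and immune cells were set beside the chemokines. Of 17 such markers 9 were tested, and 1 was higher (LYZ) and 1 lower (CD74) at an unadjusted p below 0.05. Over all genes 3.10% were higher and 4.09% lower. LYZ, the lysozyme of myeloid and glandular cells, was at 0.0851 and 1.22 CPM on plastic and at 4.81 and 2.56 CPM on ACP (2.43 ± 0.75, adjusted p = 0.609), and like the chemokines was higher in ACP replicate 1. CD14, a monocyte receptor, had a log2 change of 0.66 ± 0.45 and missed the unadjusted threshold. Its groups did not overlap, as for 19.8% of all genes in this direction. The summed list was at 18.5 and 30.5 CPM on plastic and at 25.0 and 18.1 CPM on ACP, and CD3E, a T cell receptor subunit, had 0 reads in all 9 libraries. PTPRC, which marks all white blood cells, had 6 and 5 reads on plastic and 1 and 0 on ACP. The part of immune cells in the chemokine levels was not tested.

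CDK6, a kinase that starts the cell cycle, was the nearest to the threshold of these 7. It was at 2.30 and 1.08 CPM on plastic and at 13.8 and 20.3 CPM on ACP, with a log2 change of 3.34 ± 0.51 and an adjusted p of 0.0968. DESeq2 called it (adjusted p = 2.10e-09), as did the fit of all 34 libraries (0.00766) and the test with no count filter. The fit of the 4 compared libraries (0.110) did not call CDK6, nor did the other settings tried. UGT1A1, a glucuronidation enzyme, was at 0.0284 and 3.29 CPM on plastic and at 18.6 and 7.72 CPM on ACP, and as a ratio its plastic libraries differed more from each other than plastic replicate 2 did from ACP. UGT1A genes share exons, so its reads are uncertain.

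The 10 largest negative changes held VIM, APOA1 and 8 genes that missed the threshold, out of 472 that met the rule in this direction. In 3 of the 10, plastic replicate 1 was over 2 times plastic replicate 2. TNC, the matrix protein tenascin C, was at 121 CPM in plastic replicate 1, at 8.93 CPM in plastic replicate 2 and at 5.99 and 7.90 CPM on ACP. Its log2 change of -3.22 ± 0.90 (adjusted p = 0.558) became -0.37 without plastic replicate 1. FAM43A was at 206 and 52.9 CPM on plastic and at 42.5 and 49.5 CPM on ACP, and its log2 change of -1.49 ± 0.49 became -0.21 without that library. Without plastic replicate 2 both were called, with adjusted p of 0.0182 and 0.0301. LOXL2, a collagen cross-linking enzyme, was at 10.9 and 3.86 CPM on plastic and at 1.51 and 2.43 CPM on ACP. Its log2 change was -1.90 ± 0.59 (adjusted p = 0.609), and -0.97 without plastic replicate 1.

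For the other 5 genes the plastic libraries lay closer together, although for FN1 plastic replicate 2 was over 2 times plastic replicate 1. FN1, the matrix glycoprotein fibronectin, was at 47.0 and 96.7 CPM on plastic and at 23.0 and 24.2 CPM on ACP (-1.61 ± 0.31, adjusted p = 0.224). Its log2 change ran from -2.04 to -0.97 leaving out 1 library. NPEPL1, an aminopeptidase-like protein, was at 16.3 and 16.7 CPM on plastic and at 6.27 and 5.98 CPM on ACP (-1.43 ± 0.29, adjusted p = 0.256). APOE, a lipid carrier, was at 14.1 and 16.9 CPM on plastic and at 3.11 and 2.26 CPM on ACP (-2.53 ± 0.62, adjusted p = 0.482). DESeq2 called all 3 genes, while the fit of the 4 compared libraries called none of them. APOE and NPEPL1 were also lower in all 6 ACP libraries than in all 3 plastic libraries. This held for 2.32% of genes in this direction. Among the 630 genes that were lower at an unadjusted p below 0.05 with no overlap, it held for 20.8%. The split includes the libraries that chose APOE and NPEPL1. For APOE it is nearly a tie, at 8.49 CPM on plastic in stripped serum and 8.47 CPM in ACP stripped replicate 1. Plastic control also lay above every other library of the line, stripped plastic included, for NPEPL1 in 4 of 4 lines. For APOE it did so in 3 of 4, VCaP among them. CD74, the MHC class II invariant chain, had a log2 change of -2.39 ± 0.62 and GC, the vitamin D binding protein, one of -1.66 ± 0.53, with adjusted p of 0.515 and 0.609.

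No gene of the luminal identity list was called, and its median log2 change over 15 genes was 0.00087. A pair of them had an unadjusted p below 0.05 with a lower level on ACP, as did 4.09% of all genes. TMPRSS2, the androgen-driven protease, was at 780 and 416 CPM on plastic and at 238 and 249 CPM on ACP, a log2 change of -1.30 ± 0.35 with an adjusted p of 0.520. DESeq2 (adjusted p = 0.0456) and the test with no count filter (0.0138) called it. The fit of all 34 libraries (0.199) and that of the 4 compared libraries (0.441) did not, nor did the other settings tried. ERG was at 545 and 289 CPM on plastic and at 219 and 265 CPM on ACP, -0.78 ± 0.32 with an adjusted p of 0.667. Both had no overlap, which 22.3% of genes showed in this direction, and in both plastic replicate 1 was the highest of the 4 libraries. On stripped serum they lay lower on both surfaces, with TMPRSS2 at 101 CPM on plastic and at 90.6 and 97.5 CPM on ACP. Other androgen-linked genes differed from this pair: KLK3, prostate-specific antigen, was at 49.0 and 85.6 CPM on plastic and at 85.2 and 101 CPM on ACP (0.47 ± 0.63), and KLK2 at 0.03 ± 0.25. Reads of KLK2 and KLK3 may be split between these similar genes. The other luminal markers, among them the keratins KRT18 (0.10) and KRT19 (0.23), the homeobox factor HOXB13 (-0.54) and the channel TRPM8 (0.50), all missed the unadjusted threshold. Of 26 androgen-induced genes 2 were lower at an unadjusted p below 0.05 (4.09% of all genes were) and none was called, with a median of -0.10. CAMKK2, a calcium-dependent kinase and the lowest of that list, was at 519 CPM in plastic replicate 1 and at 197, 156 and 195 CPM in plastic replicate 2 and both ACP libraries. Its log2 change was -1.02 ± 0.38, and -0.17 without plastic replicate 1.

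**Figure D4:**
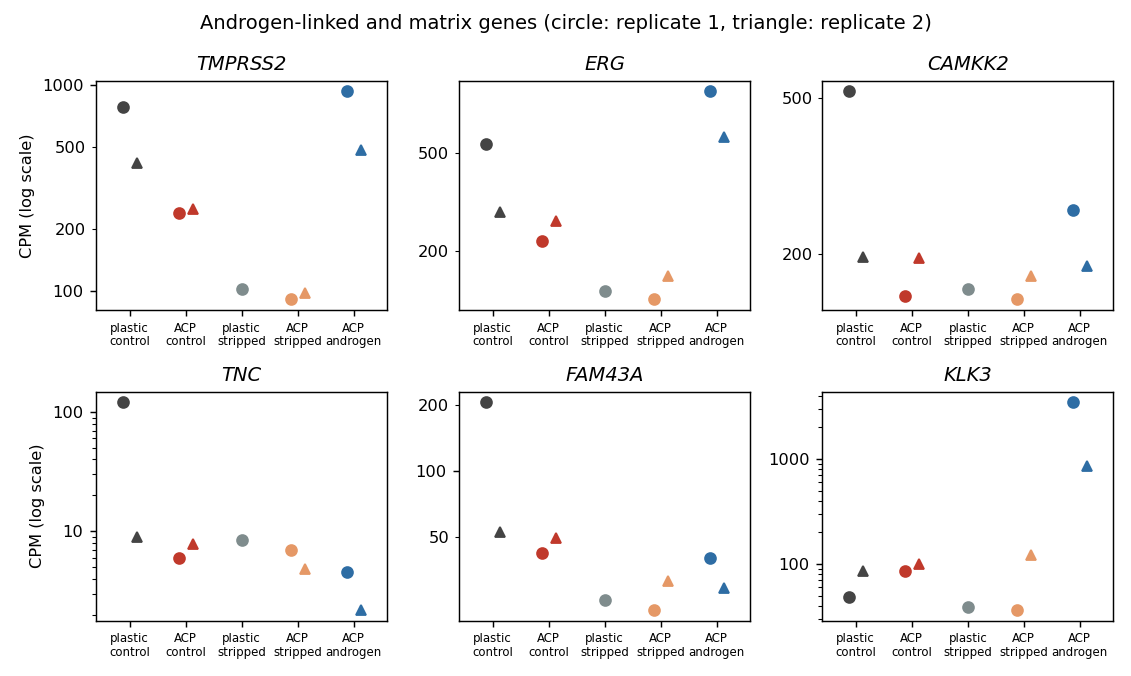
CPM (log axis) of androgen-linked genes and of the matrix gene TNC and FAM43A in each VCaP library. Plastic control replicate 1 stands above replicate 2 in every panel except KLK3, where it was at 49.0 against 85.6 CPM.

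The genes listed for bone mineral and adhesion gave no call. Of 34 tested genes of calcium and phosphate handling, 1 was higher and 1 lower at an unadjusted p below 0.05, and the median was -0.15. ATP2C1, the Golgi calcium pump, was at 362 and 476 CPM on plastic and at 607 and 560 CPM on ACP (0.48 ± 0.21, adjusted p = 0.682). ORAI2, a subunit of store-operated calcium channels, was at 99.2 and 68.0 CPM on plastic and at 49.2 and 49.3 CPM on ACP (-0.76 ± 0.22, adjusted p = 0.572). These were the highest and the lowest of the list among genes of 5 CPM or more. Of 20 tested bone genes, 3 were lower and none higher at an unadjusted p below 0.05, and the median was -0.50. COL1A1, the main collagen chain of bone, was at 6.21 and 5.50 CPM on plastic and at 2.69 and 2.48 CPM on ACP (-1.18 ± 0.43, adjusted p = 0.650). COL1A2, its partner chain, had 111 reads on plastic and 1 on ACP, a ratio of 62.9-fold lower (exact 95% interval 11.1 to 2508, counting error only). SPARC, a mineral-binding matrix protein, had a log2 change of -2.28 ± 0.68. GREM1, an inhibitor of bone morphogenetic proteins, was the highest (0.53 ± 0.37).

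Of 33 adhesion genes, 1 was higher and 3 lower at an unadjusted p below 0.05, with a median of -0.13. ITGB8, an integrin chain that activates TGF-beta, was at 4.00 and 4.95 CPM on plastic and at 11.7 and 6.66 CPM on ACP (1.03 ± 0.40, adjusted p = 0.658). ITGA5, the fibronectin receptor chain, was at 5.73 and 5.66 CPM on plastic and at 3.96 and 2.22 CPM on ACP (-0.88 ± 0.36, adjusted p = 0.680). Of 20 tested YAP targets, genes that respond to cell spreading and stiffness, 2 were lower and the median was -0.36, with MYOF highest (1.35 ± 0.73) and ARHGEF17 lowest (-0.77 ± 0.33) among genes of 5 CPM or more. Of 26 tested immediate early genes, 5 were lower and 1 higher, with a median of -0.34. IER2, which serum induces within minutes, was at 53.6 and 50.4 CPM on plastic and at 27.9 and 36.6 CPM on ACP (-0.69 ± 0.21, adjusted p = 0.609), and KLF4, a transcription factor, had the highest value among genes of 5 CPM or more (0.54 ± 0.43). All of these shares, and those of the calcium and bone lists, stand against 3.10% higher and 4.09% lower over all genes.

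**Figure D5:**
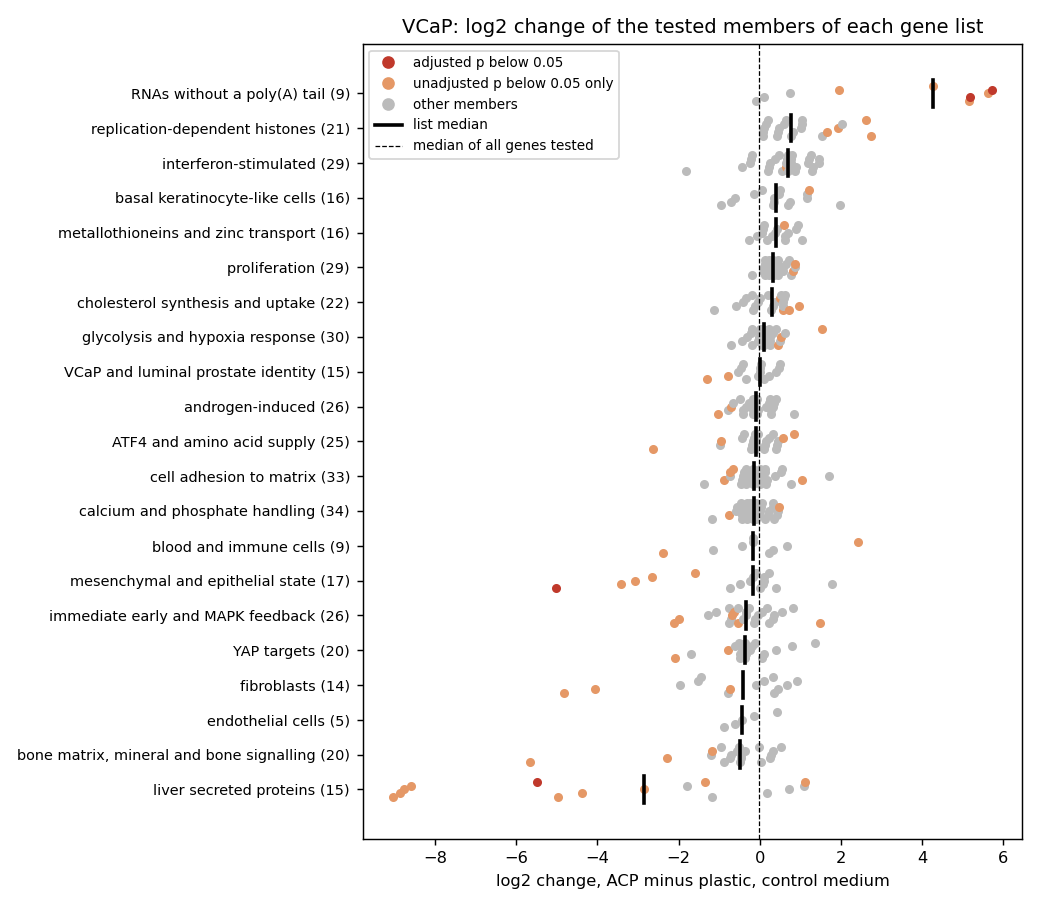
Log2 change on ACP against plastic (horizontal axis) of each tested member of the 21 gene lists, with the number tested in parentheses. Thick bars are list medians, from -2.84 for liver proteins to 4.26 for RNAs without a poly(A) tail, and the dashed line is the median of all genes. Red points passed the adjusted threshold and orange points only the unadjusted one.

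Growth and metabolic lists gave no call. Of 29 proliferation genes 28 were above 0, against 7545 of 15614 over all genes, and the list median was 0.34. At an unadjusted p below 0.05, 2 were higher (3.10% of all genes were). PCNA, the sliding clamp of DNA polymerase, was the highest, at 146 and 262 CPM on plastic and at 439 and 310 CPM on ACP (0.88 ± 0.34, adjusted p = 0.658), and CENPE, a mitotic kinesin, the lowest (-0.18 ± 0.33). Their summed level was 3118 CPM in plastic replicate 1, 5226 CPM in plastic replicate 2 and 5491 and 5333 CPM on ACP, so plastic replicate 1 stood apart, and without it the list median was 0.02. Of 21 tested replication-dependent histone genes, 4 were higher at an unadjusted p below 0.05 (3.10% of all genes were). All 21 were above 0, with a median of 0.76. These messages end in a stem-loop in place of a poly(A) tail, and HIST1H1C, a linker histone, was at 50.5 and 108 CPM on plastic and at 147 and 121 CPM on ACP (0.76 ± 0.39). Near-identical histone genes share reads. Without plastic replicate 1 the histone median was 0.31.

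Of 22 cholesterol genes, 4 were higher at an unadjusted p below 0.05 and none lower (3.10% and 4.09% of all genes), with a median of 0.30 that was 0.05 without ACP replicate 1. MSMO1, a late enzyme of the pathway, was at 122 and 175 CPM on plastic and at 366 and 219 CPM on ACP (0.98 ± 0.28, adjusted p = 0.569), and MVD, an early one, was the lowest among genes of 5 CPM or more (-0.57 ± 0.27). MSMO1 was also higher in all 6 ACP libraries than in all 3 plastic ones. This held for 32.6% of the 479 genes that were higher at an unadjusted p below 0.05 with no overlap. Of 30 glycolysis and hypoxia genes 3 were higher (median 0.10), with EGLN3, an oxygen sensor, at 1.54 ± 0.66 and SLC16A3, a lactate exporter, at -0.71 ± 0.74. Of 25 amino acid supply genes 2 were higher and 2 lower (median -0.10), with CEBPB at 0.85 ± 0.35 and DDIT4 at -0.98 ± 0.57. Of 16 metallothionein and zinc genes 1 was higher (median 0.40), with MT1X at 0.89 ± 0.53 and the zinc importer SLC39A1 at -0.27 ± 0.21. The counts of these lists are at an unadjusted p below 0.05 too, and stand against 3.10% higher and 4.09% lower over all genes.

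Markers of other cells were compared beside these groups. The keratinocyte-like list, of 16 tested, had a median of 0.41 and summed to 65.2 and 107 CPM on plastic and to 125 and 114 CPM on ACP, with DSC3, a desmosomal cadherin, lowest (0.35 ± 0.30) among genes of 5 CPM or more. The fibroblast list, of 14 tested, had a median of -0.42 and 3 lower at an unadjusted p below 0.05 (4.09% of all genes were). Without plastic replicate 1 the median was 0.03, and without ACP replicate 2 it was -1.08. Among the 3 lower genes were 2 collagen chains: COL3A1 had 163 reads on plastic and 3 on ACP (-4.83 ± 1.03, adjusted p = 0.339), and COL6A3 had 151 and 5 (-4.05 ± 0.70, adjusted p = 0.159). They were low on ACP as VIM was, but did not pass the threshold. The list summed to 285 and 313 CPM on plastic and to 339 and 299 CPM on ACP, with LUM, a matrix proteoglycan, at 0.91 ± 0.75 and ACTA2, smooth muscle actin, at -1.44 ± 0.65. PDGFRA, a defining fibroblast receptor, had 7 and 9 reads on plastic and 0 and 10 on ACP. The endothelial list, of 5 tested, summed to 53.5 and 32.8 CPM on plastic and to 35.3 and 28.4 CPM on ACP, and CDH5, its defining cadherin, had 1 and 3 reads on plastic and 0 on ACP. EGFL7, a secreted endothelial protein, was at -0.43 in log2 change. HLA-DPB1, an MHC class II chain on the blood list, was at -0.17 ± 0.38. The part of other cells' RNA in the falls of VIM, C3 and APOA1 was not tested.

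The same surface comparison in the other lines was read beside VCaP. LNCaP is a line from a lymph node metastasis and RWPE is non-tumorigenic prostate epithelium, each with 2 libraries on ACP and 2 on plastic in its own control medium. In LNCaP 6 of the 7 genes passed the threshold in the VCaP direction (12.6% of genes tested passed there), and in RWPE 5 did and 1 passed in the opposite direction (4.16% passed there). RPPH1 had log2 changes of 6.67 ± 1.41 in LNCaP and 8.69 ± 2.12 in RWPE. APOA1 had -5.88 ± 1.06 in LNCaP and -8.99 ± 1.10 in RWPE. VIM had -0.52 ± 0.49 in LNCaP (adjusted p = 0.503) and -0.997 ± 0.179 in RWPE. C3 was -7.23 ± 0.90 in LNCaP and rose by 1.99 ± 0.21 in RWPE. Over all groups of a line, plastic control was below every other library for RPPH1, RMRP and RBMXL2 in 3 of 4 lines and above every other library for APOA1 in 4 of 4. In MDAPCa2a, the other bone metastasis line, RPPH1 was at 0.414 and 32.3 CPM in the plastic control pair and at 10.1 to 136 CPM in the other 6 libraries.

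The difference of surface effects between lines was tested in the fit of all 34 libraries. Against LNCaP, 4 of 17323 genes passed (0.0231%). VIM changed by 4.46 log2 units more downward in VCaP (difference -4.46 ± 0.71, adjusted p = 0.0162), and MSN and CPS1, the first enzyme of the urea cycle, also had negative differences, of -2.29 ± 0.38 and -3.42 ± 0.57. CYP1B1, a steroid-metabolizing cytochrome, had a positive one (3.33 ± 0.58), with a mean of 15.6 CPM on ACP and 17.3 CPM on plastic in VCaP and 0.127 and 1.45 CPM in LNCaP. Against RWPE, 32 genes passed (0.185%), of which 5 hold values in the form of spreadsheet dates in the RWPE plastic columns, leaving 27. A new fit without the date-like genes called only 17, all among these 27. C3 had the smallest p of those 27 (difference -8.24 ± 0.66, adjusted p = 7.99e-08). VIM, MSN and LOXL2 were also more negative in VCaP, while ALB, TTR and HLA-DPB1 were more positive.

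The surface effect in control medium was also set against that in stripped serum within VCaP. The difference passed for 4 of 15614 genes (0.0256%), all of them higher in control medium: RPPH1 (6.81 ± 0.64, adjusted p = 0.0129), RBMXL2 (6.69 ± 0.74), SNORA73B (9.12 ± 1.07) and RMRP (7.19 ± 0.89). In stripped serum RPPH1 was at 55.5 CPM in the plastic library and at 17.4 and 18.2 CPM on ACP, the reverse order of control medium. The stripped plastic arm is 1 library, which was assumed to vary like the other groups. Without ACP stripped replicate 2, or without plastic control replicate 1, none of the 4 passed.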

How the data were processed

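RNA was sequenced from poly(A)-selected libraries of 4 prostate lines, after purification with a column kit, per the labels' protocols. The submitters' processing notes name STAR, HTSeq and hg19 with no versions; which annotation was counted, and whether strand was used, is not given in the sources used here. The deposited values are raw read counts per gene, whole numbers that the authors did not normalize, for 26336 gene symbols and 34 libraries.

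Genes were tested with edgeR 4.0.16 in R 4.3.3: TMM scaling, a count filter (filterByExpr, minimum 10), the quasi-likelihood F test and Benjamini-Hochberg adjustment over all genes tested, with 0.05 as threshold. The fit held all 9 VCaP libraries in 5 groups (4 residual degrees of freedom); differences between lines used all 34. CPM are counts per 1000000 of TMM-scaled library size. The SE is the log2 change divided by the square root of F. The floor for 0 reads is 3 reads over the group, and intervals are exact 95% Poisson-based ratio intervals that cover counting error only. Totals of 19.7 M to 42.3 M reads leave genes under 1 CPM with few reads.

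Named genes were all called genes, the 10 largest positive and negative changes defined in the text, the highest and lowest member of each of 21 lists at 5 CPM or more, and the luminal markers; a named gene that is withheld is not reported here. The members and lists were chosen with earlier results of these data known. Genes chosen after their values were seen include SNORA73B, SCARNA10, SCARNA2, TERC, ALPP, the fibrinogens, ALB, LYZ, CD14, COL3A1, COL6A3, MSN, LGALS1, S100A4, CDH1, COL1A2, SPARC, B2M, NFKBIA, TNFAIP3 and the neighbours. RELB, ICAM1 and CXCL11 were chosen in the same way. Sequences come from GENCODE 29. Alternatives were RLE factors, no count filter, DESeq2 1.42.0, a replicate block, other sets of libraries, leaving out each library and, added after seeing the data, removal of the date-like genes and a GC correction (lowess, span 0.3). The steps were tested on simulated counts.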

Additional observations from a re-analysis of the deposited data

Results flagged for a closer look

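Several surface effects differed from the same effect in another line or medium, each by an edgeR interaction test past an adjusted p of 0.05. Against LNCaP the differences in log2 change, VCaP minus LNCaP, were -4.46 for VIM, -2.29 for MSN, -3.42 for CPS1 and 3.33 for CYP1B1. Against RWPE, the 10 smallest p-values without date-like genes and the named genes gave negative differences for C3 (-8.24), ALPP (-10.59), PLA2G4A (-7.73), CYBA (-4.38), VIM (-4.06), LOXL2 (-3.47), MSN (-2.44) and TJP3 (-2.41). They gave positive differences for ALB (5.92), TTR (5.50), HLA-DPA1 (4.67), HLA-DPB1 (3.50) and PMEPA1 (2.50). A fit without the date-like genes called only 17 genes against RWPE, so some of the genes given here may not pass in it. ALPP and PLA2G4A had 0 reads on ACP in VCaP, so their fitted values are no bound. Between media within VCaP, control minus stripped, the differences were 6.81 for RPPH1, 6.69 for RBMXL2, 9.12 for SNORA73B and 7.19 for RMRP, with 1 library on plastic in stripped serum.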

How the results depend on the processing

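With 2 libraries a group, calls moved with the setting. VCaP on ACP against plastic in control medium gave 7 calls, 72 with no count filter, 40 with DESeq2 (each holding all 7), 64 in the fit of all 34 libraries (4 of the 7), 1 in the fit of the 4 compared libraries, and 1 to 19 leaving out 1 library each. With RLE factors it gave the same 7. The replicate block gave 6 calls, all of the 7 but FLJ16779 (adjusted p = 0.108). The deviations of same-numbered plastic and ACP libraries correlated at -0.0019. Between the other pairs of VCaP groups this correlation ran from -0.48 to 0.26. With 1 deviation a group it cannot show whether the numbers mark a shared culture or day. The GC correction gave 5 calls, without APOA1 and FLJ16779 (adjusted p = 0.052 for both); over 5 equal classes of GC content the median log2 change ran from 0.17 in the lowest to -0.27 in the highest. The difference from LNCaP gave 4 calls, 17 with no filter, 8 with DESeq2 and 0 to 20 leaving out 1 library. The difference from RWPE gave 32, 94 with no filter, 97 with DESeq2, 17 without the date-like genes and 4 to 104 leaving out 1 library. The difference from stripped serum gave 4, 12 with no filter, 8 with DESeq2, 0 in the fit of all 34 libraries (662 at an unadjusted p below 0.05) and 0 to 10 leaving out 1 library. The cause was not tested beyond fewer libraries or genes in a fit.

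All 7 called genes kept their direction in every alternative run. Of the 71 named genes, 15 changed sign somewhere, none of them called; leaving out 1 library, the log2 changes that crossed 0 were ACPP (-0.23 to 0.29), ACTA2 (-2.18 to 0.21), CENPE (-0.47 to 0.20), DDIT4 (-1.65 to 0.40), DSC3 (-0.0694 to 0.96), EGFL7 (-0.80 to 0.0935), FOLH1 (-0.0126 to 0.97), HIST2H2BE (-0.23 to 0.32), HLA-DPB1 (-0.55 to 0.38), KLK2 (-0.17 to 0.28), KLK4 (-0.11 to 0.0103), KRT18 (-0.0364 to 0.22), KRT19 (-0.0936 to 0.65), KRT8 (-0.16 to 0.22) and SLC45A3 (-1.48 to 0.30). In the fit of all 34 libraries KLK2 was at -0.0179, KRT8 at -0.0404 and ACPP at -0.0454. ACPP was at -0.00282 with no filter and -0.10 with the GC correction, where KLK4 was at 0.18. Other list medians that moved included bone matrix (-0.17 without plastic replicate 1), metallothioneins (0.0879 without plastic replicate 1 and 0.83 without plastic replicate 2), liver proteins (-4.44 without ACP replicate 1), and, without plastic replicate 2, blood cells (0.38), androgen-induced genes (0.0608) and adhesion (0.0391). Genes near or under 1 CPM are limited by depth.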
